A study of Homo sapiens with 4 samples.

Results

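The peaks described here come from the direct comparison of RNA immunoprecipitated with NSUN2 (IP) from lactate-treated and vehicle-treated PANC-1 cells. They were chosen by read density: a peak was kept where its densities in the 2 IP libraries summed to at least 40, which left 11146 of 116484 peaks. Apart from 202 intergenic peaks, these lay in 5720 genes, and 1160 genes held 3 or more of them. NSUN2 is a methyltransferase that adds a methyl group to position 5 of cytosine in transfer RNA and in some messenger and noncoding RNAs, giving m5C. Lactate is the end product of glycolysis, which many pancreatic tumour cells export in large amounts, and it is also the source of lactylation, a mark on lysine residues of proteins. RNA immunoprecipitation (RIP) pulls a protein out of a lysate with an antibody and sequences the RNA that comes with it, and a peak is a stretch where the precipitate (IP) holds more reads than the input RNA.

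The cells were PANC-1, an established wild-type line from a human pancreatic ductal adenocarcinoma, grown in serum. The lactate group received 30 mM sodium lactate for 24 h and the vehicle group water for the same time; each gave 1 NSUN2 IP and 1 input taken before the antibody step. There was 1 library per group and no IP with a control antibody was analysed here. No value below therefore has a replicate error and no test was run. Intervals are 95% intervals on counting error only, since the kit tags no single molecules.

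Each value below is a log2 ratio of lactate IP over vehicle IP, minus the median over the 11146 peaks, so 0 is the typical peak. The deposited densities had been adjusted by the authors along a line in density, and the reads behind them could be recovered as whole numbers in windows of 2 kb around each peak's midpoint. Ratios were therefore computed on 2 scales: the density scale, as deposited, and the reads scale, without that line. A value given alone is on the density scale. The median window held 62 reads in the lactate IP and 114 in the vehicle IP. The median ratio subtracted was -0.10 on the density scale and -0.90 on the reads scale. Windows of 6159 peaks (55.3%) overlapped another peak's window, so neighbouring peaks share reads and are not independent, and the 11146 peaks formed 7596 separate runs.

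The epithelial identity of the line was visible in the inputs. Of 15 ductal and epithelial genes, 12 had at least 1 FPKM (fragments per kilobase of gene, scaled to library size) in both inputs, led by S100A11 and S100A10, whereas the cadherin CDH1 was at 0.121 FPKM in vehicle and 0.0736 in lactate. The summed level of the list was 1028 FPKM in the vehicle input and 513 in the lactate input. A lower level in the lactate input was not particular to this list. Genes with a peak and at least 1 FPKM in an input had a median log2 ratio (FPKM + 1) of -0.43, lactate over vehicle. Of 7 fibroblast, endothelial and immune genes in the table, COL1A1 alone reached 1 FPKM in both inputs. Among 6 neuron and Schwann genes SYT1 alone did, at 12.3 FPKM in vehicle and 9.54 in lactate. Whether these levels bear on the peak ratios was not tested.

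The spread of the ratios was narrow. The middle of the distribution ran from -0.39 to 0.36 (quartiles) on the density scale and from -0.36 to 0.37 on the reads scale. Past 2-fold above the median were 415 peaks (3.72% of the peaks) and at least 2-fold below it 615 (5.52%). On the reads scale the balance was the other way, with 596 above (5.35%) and 447 below (4.01%), so the share of higher calls went from 40.3% to 57.1%. Without centring it was 26.4%, with centring on peaks listed in both conditions 26.6%, and with centring on all 116484 peaks, whose median lay 0.40 lower, 87.9%. Which direction held more 2-fold peaks was thus set by the scaling, and no excess in either direction is reported.

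The scales parted by density. Among 10 equal groups of peaks ordered by summed density, the median ratio went from -0.12 in the sparsest to 0.27 in the densest on the density scale, and from 0.12 to -0.10 on the reads scale. The line adds 0.169 to the log2 ratio for each unit of mean log2 density. In all, 1349 of the 11146 peaks had opposite signs on the 2 scales. The 100 peaks just above the minimum of 40 had a median of -0.20 (quartiles -0.56 and 0.30) and the 100 just below it -0.10 (quartiles -0.73 and 0.44).

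**Figure D1:**
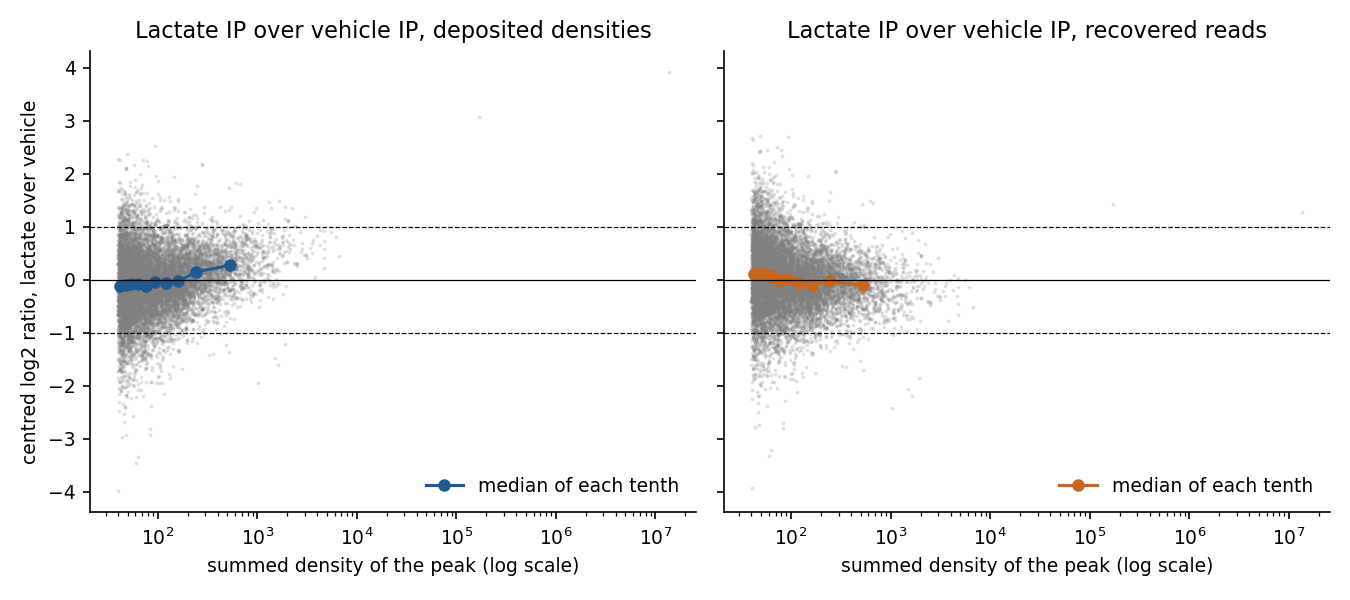
Centred log2 ratio of lactate IP over vehicle IP (vertical axis) against the summed density of the peak (horizontal axis, log scale) for 11146 peaks, from the deposited densities (left) and from recovered reads (right). Dots are peaks, joined circles the medians of 10 equal density groups and dashed lines 2-fold; the medians climb to 0.27 on the left and end at -0.10 on the right.

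Whether a peak had been listed in one or both conditions went with its ratio, as the lists come from the same libraries. The 7542 peaks listed in both had a median of 0.10, the 3058 listed in vehicle alone -0.31 and the 546 listed in lactate alone 0.34. The vehicle list was the longer, with 95785 peaks against 48104.

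The ratio went with the position of a peak in its gene, and intron peaks were the highest class on both scales. Introns are removed from a message in the nucleus, while exons and UTRs stay in the mature RNA. The 1746 peaks annotated to introns had a median of 0.32 on the density scale and 0.47 on the reads scale, with 239 past 2-fold upwards (13.7%) and 41 downwards (2.35%). The 3875 exon peaks had medians of -0.13 and -0.15, with 65 higher (1.68%) and 317 lower (8.18%). The 5182 peaks in 3′ UTRs, the largest class, lay at the centre, at 0.01 and -0.02, with 88 higher and 230 lower. The 141 peaks in 5′ UTRs were the lowest, at -0.27 and -0.26, with 5 higher and 22 lower. The 202 intergenic peaks lay at 0.17 and 0.33, between introns and 3′ UTRs. Introns and intergenic stretches thus stood above the median and exons and 5′ UTRs below it on both scales, while the sign of the 3′ UTR median turned with the scale.

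**Figure D2:**
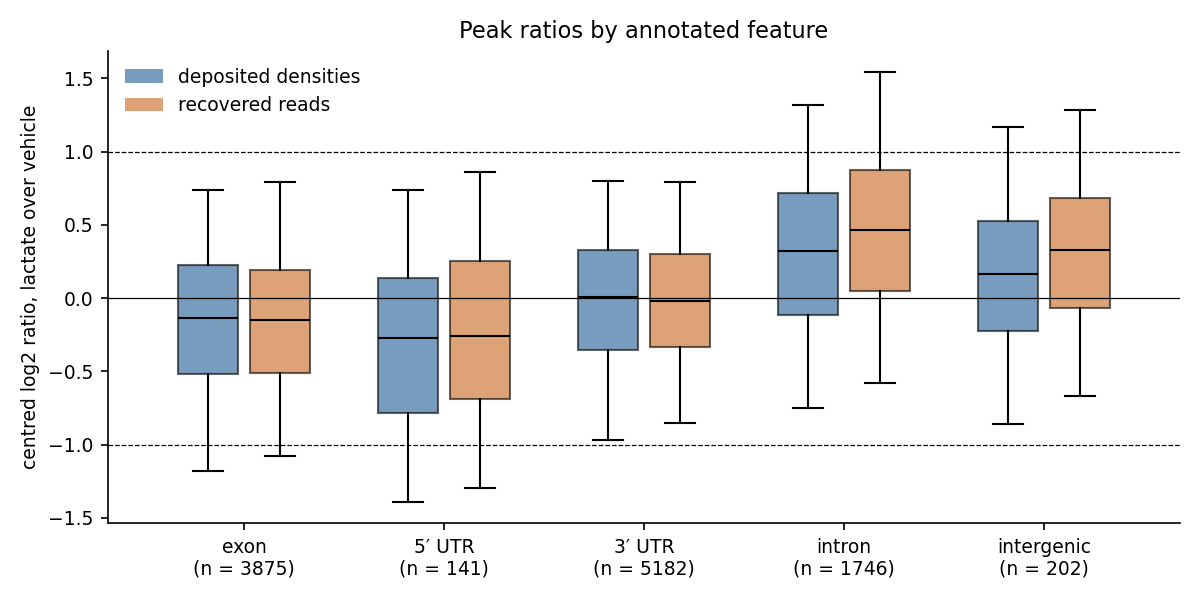
Centred log2 ratio of lactate IP over vehicle IP by annotated feature, from deposited densities (blue) and recovered reads (orange). Boxes span the quartiles with the median as a line, whiskers run from the 5th to the 95th percentile, dashed lines mark 2-fold and n counts peaks; the intron medians are 0.32 and 0.47 and the exon medians -0.13 and -0.15.

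The height of intron peaks held in every density group. Intron peaks were sparser than the rest, with a median summed density of 55.8 against 84.4 over all peaks. Within each of the 10 density groups, the intron median was nevertheless above the median of exon and UTR peaks, by 0.22 to 0.57 on the density scale and by 0.26 to 0.58 on the reads scale. It held for the 1575 intron peaks with no listed exon or UTR peak within 1 kb, at 0.35 and 0.50. The 171 intron peaks closer to one lay at 0.09 and 0.19. Introns of protein-coding genes (1557 peaks, 0.32) and of long noncoding RNA genes (151 peaks, 0.34) were alike in level, while the 309 exon peaks of long noncoding RNA genes lay at -0.01. The 334 intron peaks listed in vehicle alone had a median of -0.01, the 1239 listed in both 0.39.

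The same order was seen inside genes. In 529 genes that had both kinds of peak, the intron median exceeded the exon and UTR median in 361 (68.2%), by a median of 0.23. On the reads scale it did so in 398 (75.2%), by 0.37. With only the intron peaks away from listed exon and UTR peaks, 444 genes remained, and introns were higher in 307 (69.1%) on the density scale and in 346 (77.9%) on the reads scale. The input FPKM counts whole genes and gives no intron level to set beside these values. The peak lists do give the fold of each listed peak over its own input. For the 1239 intron peaks listed in both conditions the median fold was 6.67 in lactate and 7.60 in vehicle. For all 7542 peaks listed in both it was 4.47 and 5.78. Whether the intron order holds over input was not tested.

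**Figure D3:**
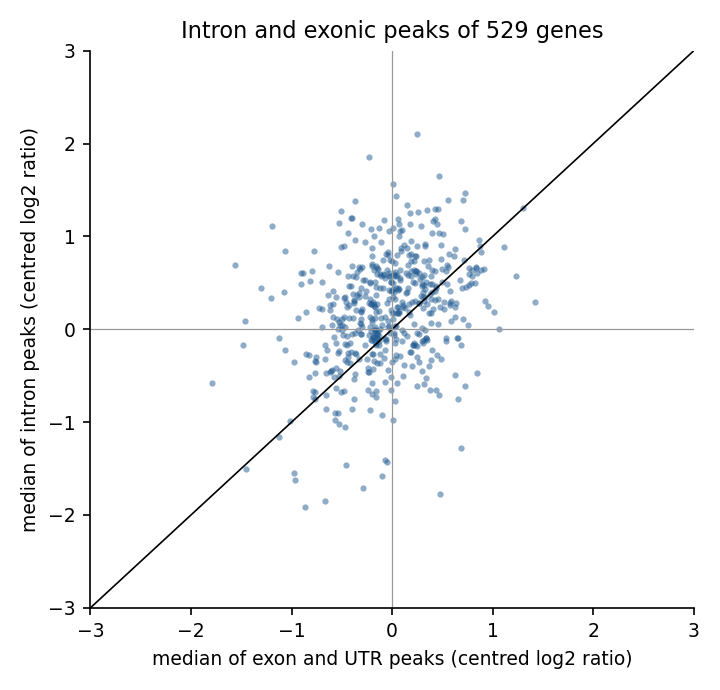
Median centred log2 ratio of a gene's intron peaks (vertical axis) against that of its exon and UTR peaks (horizontal axis), density scale, 1 dot for each of 529 genes. The diagonal marks equal values; 361 genes lie above it.

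Of 56 genes with 5 or more intron peaks, 47 had a median above 0 on the density scale and 51 on the reads scale. SYT1, a synaptic vesicle calcium sensor, had the most, 25 peaks in 18 runs, with a median of 0.49 and a range from -1.40 to 1.68. The osmotic stress factor NFAT5 had 13 at 0.59 and SLC35F3, a solute carrier, 13 at 0.57. The highest medians belonged to TNS3, a focal adhesion protein (6 peaks, 1.10), MIR31HG, the noncoding host gene of miR-31 (6 peaks, 1.04), and the mitochondrial folate enzyme MTHFD1L (5 peaks, 1.01). The lowest belonged to LINC-PINT (5 peaks, -0.38) and VOPP1 (6 peaks, -0.34). The spread within one gene was thus often wider than the distance between gene medians.

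The highest dense intron peaks held more reads in the lactate IP outright. A peak in ACTN4, the gene of an actin-crosslinking protein, at chr19:38655050-38655249 (GRCh38), had 173 reads in the lactate IP and 83 in the vehicle IP, a ratio of 1.94 and on the reads scale 1.96 (1.57 to 2.35). NTSR1, a receptor for neurotensin, had an intron peak with 122 and 58 reads, at 1.87 and 1.97. The TNS3 intron peak had 271 and 161 reads, at 1.77 and 1.65. The typical window, by contrast, held fewer reads in the lactate IP than in the vehicle IP. The lowest dense intron peaks were in ZNF652 (135 and 550 reads, -0.93) and SRGAP1, where 2 listed peaks had the same 66 and 232 reads and a value of -0.90. None of these reached 2-fold on the density scale.

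Gene values, the median over a gene's peaks, were set beside the position of those peaks. Of 1160 genes with 3 or more peaks, 18 lay 2-fold or more above the median peak (1.55%) and 30 lay 2-fold or more below it (2.59%). All 18 higher genes had intron peaks, 17 of them (94.4%) for the majority and 11 (61.1%) for every peak. Of the 30 lower genes, 24 (80%) had no intron peak and none had a majority of them. Among all 1160 genes, 230 (19.8%) had a majority of intron peaks, 84 (7.24%) had intron peaks alone and 672 (57.9%) had none. With a single peak sufficing, 5720 genes gave 114 higher (1.99%) and 255 lower (4.46%).

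The genes named next were therefore ranked on exon and UTR peaks alone, with 3 or more such peaks, all on one side of 0. Of 827 genes with enough peaks, 351 had them all on one side. None of the medians of the 12 highest reached 2-fold. The highest were ZKSCAN1, a zinc finger protein (0.97), and DUSP18, a dual-specificity phosphatase (0.97). Their neighbours were NBPF8, of a multicopy family whose near-identical copies can share reads (0.95), and ORAI2, a pore subunit of store-operated calcium channels (0.94). The lipid-binding protein OSBPL1A followed at 0.91, the splicing factor LUC7L3 at 0.90, the lysosomal TMEM192 at 0.89 and the G protein subunit GNB1 at 0.88. The last were the DNA polymerase REV1 (0.87), the phosphatase PPM1G (0.84), the ribosomal protein RPL28 (0.83) and CACNG8, an auxiliary subunit of glutamate receptors (0.82).

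Within these genes the peaks differed. The 5 ZKSCAN1 peaks, all in 1 run in the 3′ UTR, ranged from 0.03 to 1.16: the peak with 319 and 312 reads was at 1.16 and the one with 99 and 184 reads at 0.03. Its median fell to 0.19 with a minimum summed density of 20 and to 0.54 with 80. At 80, RPL28 was at 0.52. OSBPL1A and TMEM192 were even, with ranges from 0.82 to 1.02 and from 0.85 to 0.94. For the densest genes the value rested on the line. LUC7L3 went from 0.90 to 0.42 on the reads scale, GNB1 from 0.88 to 0.38 and RPL28 from 0.83 to 0.19. The densest LUC7L3 peak, in the 3′ UTR, had 2372 reads in the lactate IP and 3301 in the vehicle IP, at 1.18 and 0.42.

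At the minimum summed density of 40, the 12 lowest genes were all more than 2-fold lower on both scales. At a minimum of 20, NCBP3 was at -0.78 and GAPVD1 at -0.54. At 80, ADSL was at -1.92, NCBP3 at -1.74, NARS1 at -1.45, NOL8 at -1.01, GAPVD1 at -0.69 and BMS1 at -0.67. PCCB, EIF4G2, ARSD, NOC3L, GPATCH11 and ACOT9 had no peak of that density, so they have no value at 80. With a gene's densities summed in place of the median, GAPVD1 was at -0.94 and BMS1 at -0.88. ADSL, the purine synthesis enzyme adenylosuccinate lyase, was the lowest at -1.95. Its 3 peaks, in 1 run, had 11, 33 and 42 reads in the lactate IP against 93, 230 and 265 in the vehicle IP. The ADSL input levels were only 0.173 FPKM in vehicle and 0.236 in lactate. How these relate to its window reads was not tested. PCCB, a subunit of propionyl-CoA carboxylase, was at -1.90, with 16 against 97 reads, 8 against 99 and 33 against 58. The peaks of PCCB thus spanned -2.92 to -0.14, and the last was at 0.09 on the reads scale. NCBP3, a cap-binding protein, was at -1.65 and EIF4G2, a translation initiation factor, at -1.53. EIF4G2 had 17 against 78, 20 against 110 and 23 against 107 reads. Its peaks lay close together in value, but all were in 1 run, so their windows share reads. The sulfatase-family gene ARSD was at -1.44.

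NOL8 and NOC3L, both nucleolar proteins of ribosome assembly, were at -1.37. NOL8 had 4 peaks in its 3′ UTR, with 24 to 51 reads in the lactate IP and 105 to 178 in the vehicle IP. GPATCH11 followed at -1.36 and NARS1, the asparaginyl-tRNA synthetase, at -1.33, the latter with its 5′ UTR peak lowest (43 against 211 reads, -1.43). The endocytosis factor GAPVD1 was at -1.27 and BMS1, a GTPase of small ribosomal subunit assembly, at -1.26. At BMS1, 2 of the 3 listed peaks had the same 19 and 72 reads. The mitochondrial thioesterase ACOT9 was at -1.24. On the reads scale the 12 medians ran from -1.90 to -1.02.

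Gene FPKM in the IP libraries, which counts all reads of a gene, gave smaller values. For the 12 highest genes it gave values from -0.04 to 0.76, with 11 on the same side, RPL28 being the exception. For 11 of the 12 lowest it gave -0.94 to -0.02, all on the same side, and ADSL had no value because its IP levels were under 1 FPKM. None of these genes was past 2-fold by this measure, and each value was smaller in size than the peak value. In both inputs ADSL, PCCB, NCBP3, ARSD and BMS1, and of the highest DUSP18, NBPF8 and REV1, were under 1 FPKM. Input values of the rest are log2 ratios of FPKM + 1, minus the median gene. They ran from -0.59 (EIF4G2) to 0.16 (ACOT9) for the lowest and from -0.33 (LUC7L3) to 0.37 (OSBPL1A) for the highest.

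**Figure D4:**
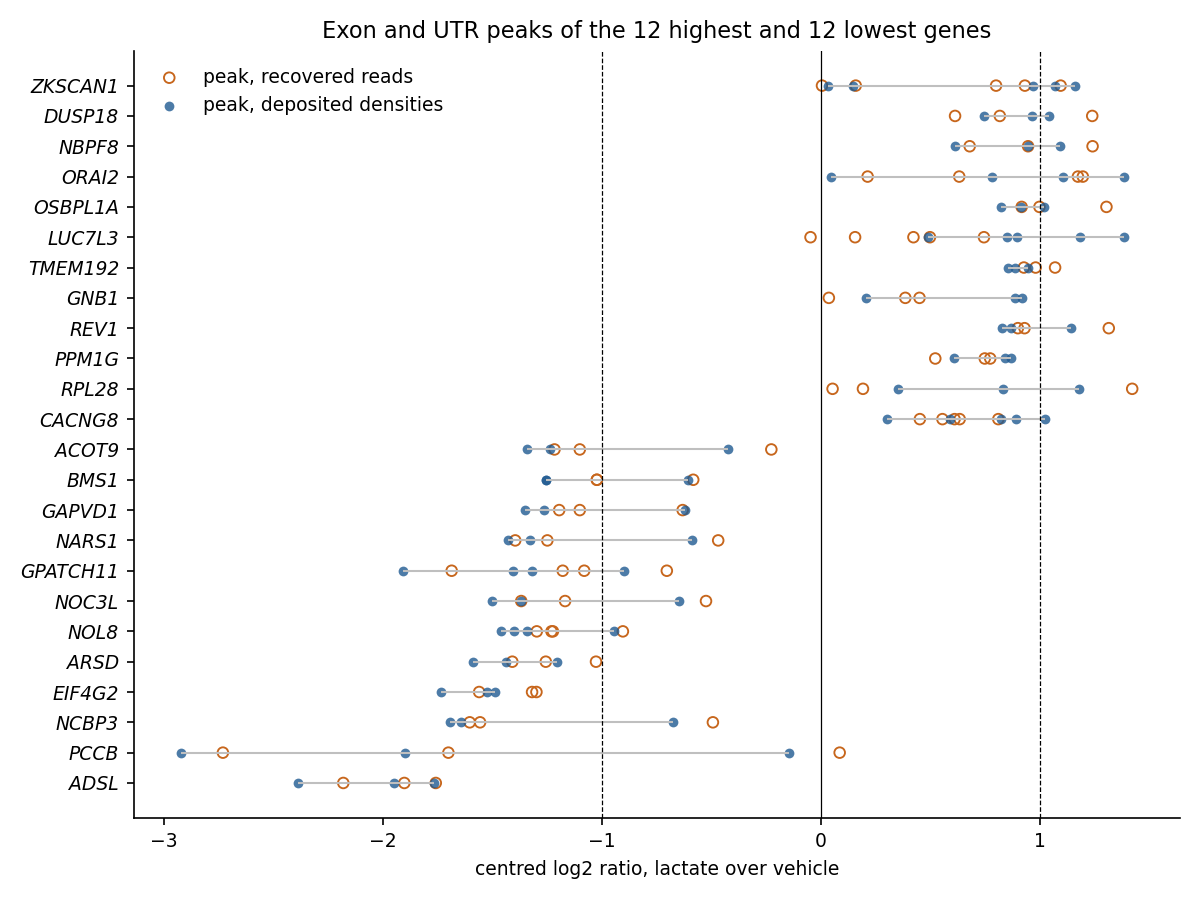
Exon and UTR peaks of the 12 genes with the highest and the 12 with the lowest median, by centred log2 ratio of lactate IP over vehicle IP (horizontal axis). Filled dots are peaks on the density scale, joined by a line from lowest to highest, and open circles the same peaks on the reads scale; dashed lines mark 2-fold. LUC7L3, GNB1 and RPL28 shift towards 0 on the reads scale.

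The densest peaks were few and belonged to abundant RNAs. MT-RNR2, the large mitochondrial ribosomal RNA, at positions 1946 to 2447 of the mitochondrial genome, had 7681346 window reads in the lactate IP and 5927088 in the vehicle IP. Its value was 3.93 on the density scale and 1.27 on the reads scale. The MT-RNR2 input value was 0.85 above the median gene on the log2 scale (FPKM + 1). In the peak lists, the fold of this peak over its own input was 3.28 in lactate and 3.35 in vehicle. Whether the input level accounts for the peak value was not tested. MALAT1, a nuclear long noncoding RNA, had 129763 and 89873 reads at chr11:65499535-65499832, and values of 3.08 and 1.43. These are the 2 peaks at which the line weighed most, and the only ones whose recovered reads could not be checked as whole numbers. MT-RNR2 was the only mitochondrial peak.

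Before centring, the MALAT1 window reads and the MALAT1 gene FPKM went in opposite directions. Its IP FPKM was 28.2 in lactate and 34.2 in vehicle, lower in lactate, whereas the window reads were higher there. FPKM is scaled to library size and window reads are not. These FPKM were not set against the typical gene, so they do not show on which side of it MALAT1 lay. MALAT1 also had 4601 window reads per FPKM in the lactate IP and 2628 in the vehicle IP, against medians of 37.1 and 33.9 over 3711 genes, and it ranked first of these in the lactate IP. MT-RNR2 had 14.3 and 13.6. The sources used here do not say how reads were assigned to MALAT1 in either table, and the cause was not tested.

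The other peaks with the highest summed density had values that depended on the scale. They lay in exons of HSP90AA1, a cytosolic chaperone (0.45 and -0.52), of FBL, the methyltransferase of nucleolar box C/D particles (0.81 and -0.14), of NUCKS1, a nuclear DNA-binding protein (0.91 and 0.00, 0.92 and 0.04), of MAP1B, a microtubule protein (0.42 and -0.46) and of KRT18 (0.22 and -0.66). All of these were higher on the density scale, while on the reads scale 4 of the 6 were lower and NUCKS1 was at the median.

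Of 2139 peaks with a summed density of 200 or more, those of EGR1 were the highest after MT-RNR2 and MALAT1. EGR1 is an immediate early transcription factor, made within minutes of growth factor or stress signals. Its 3′ UTR held 2 peaks in 1 run, at chr5:138468285-138468710 and chr5:138468957-138469355. The first had 329 reads in the lactate IP and 147 in the vehicle IP, a value of 2.20 and on the reads scale 2.06 (1.78 to 2.35). The second had 324 and 148 reads, at 2.16 and 2.03 (1.74 to 2.32). EGR1 was also higher in the input, at 7.50 FPKM in lactate and 1.34 in vehicle, 2.29 above the median gene on the log2 scale (FPKM + 1, both inputs). The peak ratio was thus about as large as the input ratio. In the peak lists, the fold over own input was lower in lactate at both peaks. It was 1.93 in lactate and 6.95 in vehicle at the first, and 2.64 and 5.53 at the second.

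NEAT1, the noncoding RNA scaffold of nuclear paraspeckles, had 679 and 466 reads at chr11:65438901-65440869, at 1.81 and 1.44. AHNAK2, a giant scaffold protein, had an exon peak with 638 and 426 reads, at 1.83 and 1.48. As at the intron peaks above, the lactate windows held more reads outright. A 3′ UTR peak of FBXO22, an F-box protein, had 116 and 66 reads, at 1.62 and 1.71. In 5′ UTRs the highest was that of the zinc finger gene ZNF780B, with 326 and 334 reads, at 1.10 and 0.86, followed by ELK3 (0.66) and ASXL1 (0.63).

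The lowest dense peaks were in ATP5F1E and EIF1. ATP5F1E, the epsilon subunit of mitochondrial ATP synthase, had 258 reads in the lactate IP and 2567 in the vehicle IP at its exon peak chr20:59030137-59030502, a value of -1.95 and on the reads scale -2.42 (-2.61 to -2.23). Its 3′ UTR peak had 469 and 3638 reads, at -1.48 and -2.06. The translation start-site selection factor EIF1 had 472 and 4027 reads at chr17:41689885-41690343, at -1.61 and -2.19 (-2.33 to -2.06), and 666 and 4488 at its second peak, at -1.21 and -1.85. Both genes were also lower in the input, ATP5F1E by a centred value of -1.16 and EIF1 by -0.66. Vehicle windows of these peaks thus held far more reads than the lactate windows.

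NOP58, a core protein of box C/D particles, had 130 and 753 reads at its 3′ UTR peak, at -1.40 and -1.64. The keratin KRT10 had 189 and 1140, at -1.37 and -1.69, and the chaperonin-like MKKS had a 5′ UTR peak with 189 and 1022, at -1.22 and -1.54. The other low 5′ UTR peaks were in NARS1 and in GART, a trifunctional enzyme of purine synthesis (46 and 211 reads, -1.33). A 3′ UTR peak of AGO3, an Argonaute protein, had 37 and 210 reads, at -1.65. The lowest exon peak with a summed density of 100 or more was in CHCHD7, a mitochondrial protein, with 30 and 242 reads, at -2.16.

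Intergenic extremes were read against the nearest RefSeq gene. The highest, chr1:224011584-224014692, overlapped the pseudogene SEPTIN7P13 and was at 1.52. The next, chr22:22287952-22288276, lay in the immunoglobulin lambda locus IGL at 1.49, and the third, chr19:40025653-40027383, 448 bp from LOC390933 and 877 bp from ZNF780B, at 1.37. The lowest overlapped the pseudogene KHSRPP1 on chromosome 9, at -0.88, and the others lay 2608 bp from HOXC11 (-0.65) and 4948 bp from MRPS30 (-0.58). No gene had one peak 2-fold higher and another 2-fold lower with summed densities of at least 80.

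CDCP1, STC1 and NSUN2 were followed because of the study's subject. CDCP1, a transmembrane protein of adhesion and migration, had 6 peaks, all above the median. In the 3′ UTR, 4 peaks of 1 run had 405, 259, 95 and 70 reads in the lactate IP and 557, 350, 95 and 83 in the vehicle IP, with values of 0.77, 0.68, 0.84 and 0.54. Its exon peak had 75 and 104 reads (0.35) and its intron peak, whose window overlaps that of the exon peak, 219 and 199 (1.16). The gene value was 0.72, or 0.56 on the reads scale, and the centred input value was 0.65. STC1, a secreted glycoprotein hormone, had 2 peaks, both under the minimum; the larger, with 42 and 21 reads and a summed density of 34.6, was at 1.53. NSUN2 had 5 peaks, none above a summed density of 7.00, so its own message gives no usable ratio at this depth.

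Gene lists were read by their gene values, beside a median of -0.01 over all 5720 genes and 1.99% higher and 4.46% lower. On the density scale, at the minimum of 40, growth-response genes had the highest median of any list with 6 or more genes. On the reads scale nuclear long noncoding RNAs were level with them (0.55 against 0.54), and at a minimum of 20 they were higher (0.68 against 0.59). These are immediate early genes, switched on without new protein synthesis, and targets of the mechanosensitive coactivator YAP. Of 30, 17 had a peak, with a median of 0.78 (reads scale 0.54), 13 above 0, with 4 past 2-fold upwards and none downwards. The 4 were EGR1, KLF10, SPRY4 and IER3. KLF10, a repressor induced by TGF-beta, had 77 and 38 reads, at 1.70 and 1.92. SPRY4, a feedback inhibitor of receptor tyrosine kinases, had 61 and 42 reads, at 1.21 and 1.44. IER3, an apoptosis modulator, had 609 and 650 reads, at 1.20 and 0.80. JUN was at 0.94 and FOSL1, both subunits of AP-1, at 0.88, while ATF3 (-0.78) and AJUBA (-0.81) were lowest.

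Of the 17, 14 had an input value, with a median of 0.27. EGR1 was at 2.29 in the input, KLF10 at 0.01, JUN at 0.36 and FOSL1 at 0.28. The input value was near the peak value or above it for IER2 (0.97 in the input, 0.78 at its peaks) and for CCN2 (0.85 and 0.81), and below it for DUSP5 (0.57 and 0.78). Whether the input levels account for the peak values was not tested.

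The promoter of EGR1 is shown because its cluster of serum response elements, the sites of serum response factor, is a textbook feature of immediate early genes. It holds the CArG box, the core of these elements, 2 times in the 250 bases before the start, beginning 105 and 83 bases before it (RefSeq, GRCh38.p14, chr5:138465229-138465478, plus strand). The capitals mark the CArG boxes, searched on both strands.
EGR1: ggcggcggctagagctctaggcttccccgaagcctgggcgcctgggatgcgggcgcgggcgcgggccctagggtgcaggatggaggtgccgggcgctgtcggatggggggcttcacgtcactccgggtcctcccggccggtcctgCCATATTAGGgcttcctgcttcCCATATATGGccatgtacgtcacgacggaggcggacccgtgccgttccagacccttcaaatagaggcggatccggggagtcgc

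The box was found in 407 of 35116 promoters of this length (1.16%) and in 1 of 13 growth-response genes with a promoter in the table, EGR1 itself. A match is a description of letters in this window.

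Nuclear long noncoding RNAs had the next highest median, 0.58 (reads scale 0.55) over 10 of 17, with 2 past 2-fold upwards and none downwards. These were MALAT1 and NEAT1. PVT1 (12 peaks, 0.77), OIP5-AS1 (0.76) and FTX (10 peaks, 0.67) followed, the peaks of PVT1 lying in introns. The cytoplasmic NORAD was at -0.27, and HOTAIR and SNHG5 at -0.33. These members thus lay on both sides of 0.

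Ribosome biogenesis and nucleolar proteins had the lowest median of these lists on the density scale, while on the reads scale cytosolic chaperones and ductal genes were lower. This list of 120 genes was added after low values of several members had been seen, so its low median restates in part why it was made. Of the 120, 84 had a peak, with a median of -0.37 (reads scale -0.34), 63 below 0, 7 at least 2-fold lower and none 2-fold higher. The 7 were NOL8, NOC3L, NPM3, BMS1, NOP58, RRP1 and CEBPZ. NPM3, a nucleoplasmin-family chaperone, had 23 and 95 reads, at -1.33. The abundant members FBL (0.55, reads scale -0.22), NCL (0.41 and -0.38) and NOP56 (0.39 and -0.21) were high on the density scale and low on the reads scale. In the input, 55 members had a median of -0.21.

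The NOL8 promoter is shown for the E-box CACGTG, the site of MYC and related factors, which are known regulators of ribosome production. The E-box, in capitals, begins 9 bases before the start (RefSeq, GRCh38.p14, chr9:92325351-92325600, minus strand).
NOL8: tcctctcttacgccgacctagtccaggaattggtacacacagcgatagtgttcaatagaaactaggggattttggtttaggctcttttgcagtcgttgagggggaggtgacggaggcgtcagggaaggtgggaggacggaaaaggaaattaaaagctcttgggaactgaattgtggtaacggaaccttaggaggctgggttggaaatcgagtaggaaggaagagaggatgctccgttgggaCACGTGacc

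CACGTG reads the same on both strands. It was found in 14 of 71 ribosome biogenesis promoters in the table (19.7%), in 2 of 13 growth-response promoters (15.4%) and in 2228 of all 35116 (6.34%). Binding was not measured.

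**Figure D5:**
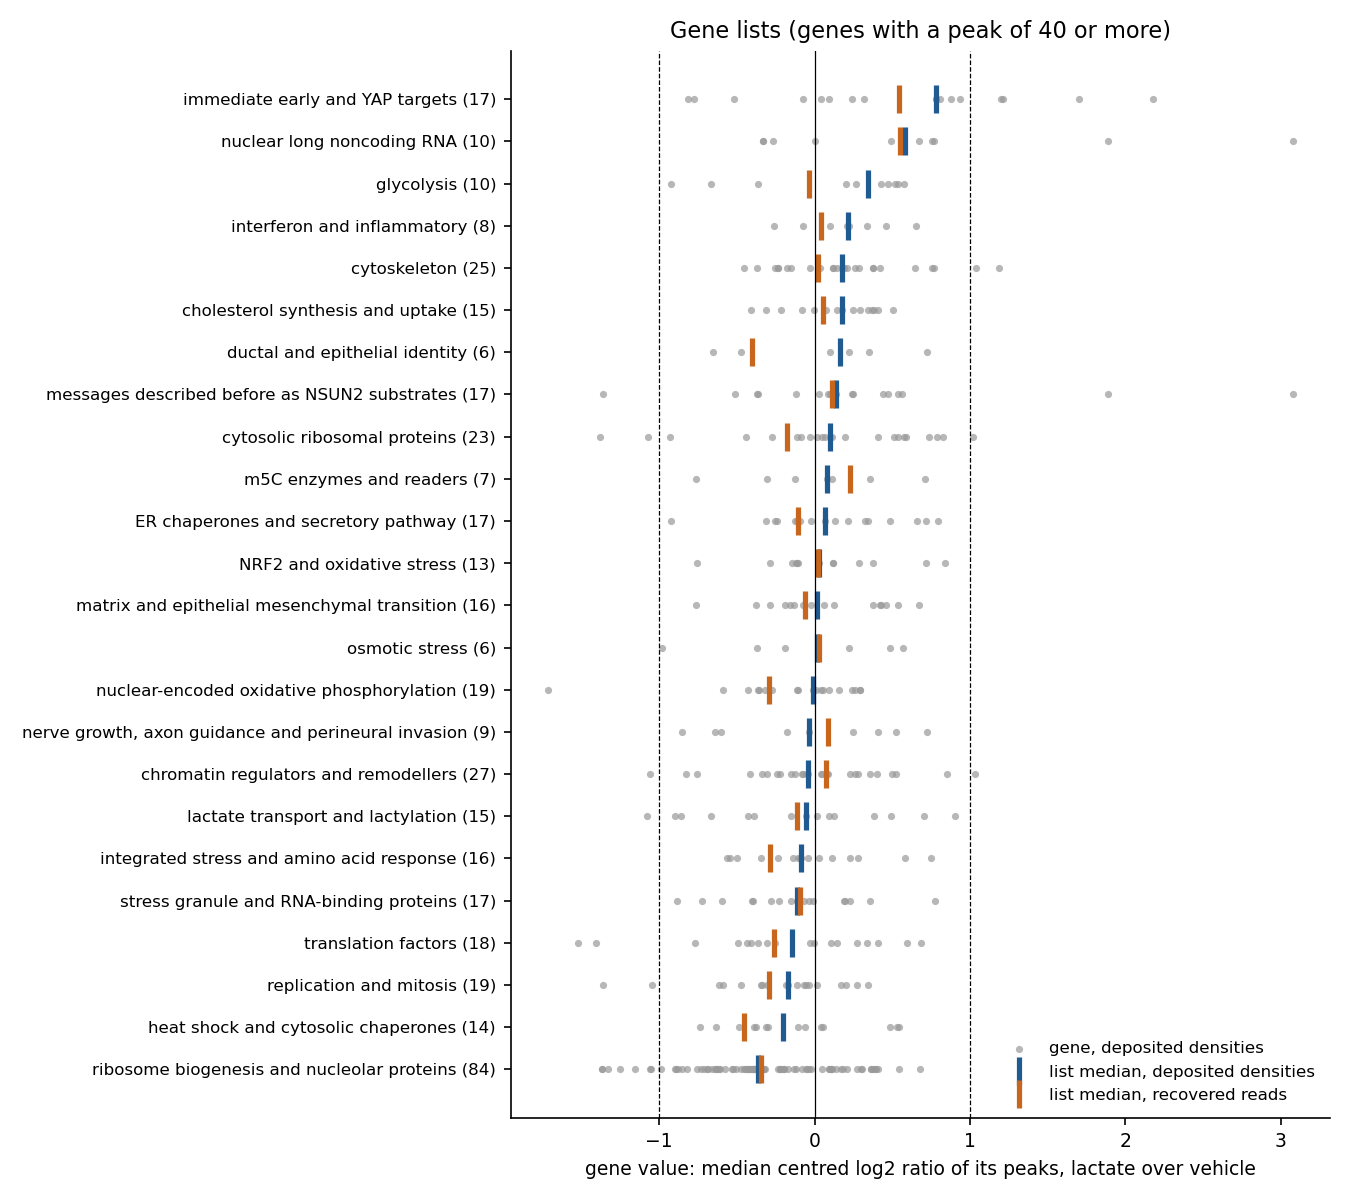
Gene values, the median centred log2 ratio of a gene's peaks in lactate IP over vehicle IP (horizontal axis), for lists with 6 or more genes (number of genes in brackets). Grey dots are genes and blue bars list medians on the density scale; orange bars are list medians on the reads scale, and dashed lines mark 2-fold. On the density scale the growth-response list has the highest median (0.78) and ribosome biogenesis the lowest (-0.37). On the reads scale nuclear long noncoding RNAs are highest (0.55) and cytosolic chaperones lowest (-0.45).

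The 2-fold counts of the protein synthesis lists rest on few genes, beside 1.99% higher and 4.46% lower over all 5720 genes. Of 78 cytosolic ribosomal proteins, 23 had a peak, with a median of 0.10 that turned to -0.18 on the reads scale. On the density scale 1 was 2-fold higher, RPL8 at 1.02, and 2 were 2-fold lower. These 2 were RPS19 at -1.38, from a single intron peak with 32 and 144 reads, and RPL23A at -1.07. On the reads scale 0 were 2-fold higher and 2 lower. Of 27 translation factors, 18 had a peak, with medians of -0.14 and -0.26 and none higher. The 2 lower ones were EIF4G2 and EIF1. Cytosolic chaperones, 14 of 18, lay at -0.20 and -0.45 with none past 2-fold: HSP90AB1 was at 0.54 and the chaperonin CCT2 at -0.74.

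Lists on the subject of the study had medians from -0.06 to 0.14 on the density scale. Of 18 m5C enzymes and readers, 7 had a peak, with a median of 0.08 (reads scale 0.23) and none past 2-fold. TET3, a dioxygenase that oxidises methylcytosine, was at 0.71 and FMR1, an RNA-binding protein counted among m5C readers, at -0.76. Lactate transport and lactylation genes, 15 of 28, lay at -0.06. The lactate exporter SLC16A3 had 434 and 545 reads, at 0.90, and the acetyltransferases KAT2A and EP300 were at -1.08 and -0.86. No gene of this list was past 2-fold on the reads scale. EP300 had 5 exon peaks with values from -1.33 to 0.05, so the gene was not uniform. Nerve growth and axon guidance genes, 9 of 41, lay at -0.04, from CDCP1 at 0.72 to the neural adhesion molecule L1CAM at -0.85. Messages earlier described as NSUN2 substrates, 17 of 29, lay at 0.14, with MALAT1 and NEAT1 2-fold higher and CDK1 2-fold lower.

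The medians of the metabolic lists were lower on the reads scale than on the density scale. Glycolytic genes, 10 of 17, lay at 0.35 and -0.04, with ALDOA highest (0.58) and HK1 lowest (-0.92). Nuclear-encoded oxidative phosphorylation genes, 19 of 45, lay at -0.01 and -0.29, with UQCRC1 at 0.30 and ATP5F1E at -1.72. Cholesterol genes, 15 of 20, lay at 0.17 and 0.05, with lanosterol synthase LSS at -0.41. No gene of the glycolytic or cholesterol lists was past 2-fold.

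Cytoskeletal genes, 25 of 30, had medians of 0.18 and 0.02 with 2 higher, FLNA, an actin crosslinker (205 and 181 reads, 1.19), and ACTN4 (8 peaks, 1.04). Replication and mitosis genes, 19 of 30, lay at -0.17 and -0.30, with the cell cycle kinase CDK1 at -1.36 and the helicase subunit MCM6 at -1.04. On the reads scale 1 gene of this list was 2-fold lower. Chromatin regulators, 27 of 29, lay at -0.04 and 0.07, with the remodellers SMARCA4 at 1.03 and BAZ1A at -1.06. Stress granule proteins, 17 of 22, lay at -0.11, with USP10 at -0.89.

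Among stress lists none had a member past 2-fold on the density scale. The integrated stress response (16 of 23) lay at -0.09, with SLC7A5 at 0.75 and XBP1 at -0.56. NRF2 and oxidative stress genes (13 of 21) lay at 0.03, with SOD2 at 0.84 and CAT at -0.76. Osmotic stress genes (6 of 12) lay at 0.01, with the inositol carrier SLC5A3 at 0.57 and aldose reductase AKR1B1 at -0.98. Hypoxia genes (5 of 18) lay at -0.23, with VEGFA at 0.60 and LOXL2 at -0.56. The secretory pathway (17 of 21) lay at 0.07, with CANX at 0.80 and SEL1L at -0.92.

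The remaining lists also held no gene past 2-fold, other than MT-RNR2. Matrix and epithelial-mesenchymal genes (16 of 30) lay at 0.02, with the integrin ITGA3 at 0.67 and the laminin LAMC1 at -0.77. Interferon and inflammatory genes (8 of 24) lay at 0.21. Ductal genes (6 of 15) lay at 0.16 and, on the reads scale, at -0.40, with MUC1 at -0.65. COL1A1 (0.59) and CD68 (-0.38) were the other-cell-type genes with a peak, besides TUBB3 (0.58) and SYT1 (0.45). H4C3 was the one replication-dependent histone with a peak (0.12). None of 13 mitochondrial messages and none of 20 small noncoding RNAs had a peak of the minimum density.

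Input levels and peak ratios were weakly related. Over 3317 genes with a peak and at least 1 FPKM in an input, the correlation between gene value and centred input ratio was 0.139 (Pearson) and 0.110 (Spearman) on the density scale, and 0.199 (Pearson) on the reads scale. These are correlations across genes, whose IP and input come from the same treatments. Of the 114 genes 2-fold higher at their peaks, the 54 with an input value had a median input ratio of 0.04, and EGR1 alone was 2-fold higher in the input. Of the 255 genes 2-fold lower at their peaks, the 146 with an input value had a median input ratio of -0.05, and ATP5F1E alone was 2-fold lower in the input.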

How the data were processed

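The 4 libraries were 1 NSUN2 IP and 1 input of each treatment. The authors deposited gene values in FPKM, a peak list per condition with fold enrichment as a ratio, p-value, q-value and −log10 values (per the file headers), and a comparison of the IP libraries with a normalized density (signal) per peak, a log2 ratio and a column of p-values, neither of which was used as a result. Per the submitters' processing notes, reads were handled with HISAT2 (2.1.0) and MACS2 (2.2.7.1) among other tools, on GRCh38. The sources used here do not name the program that compared the IP libraries, nor how it treated strand and multiply matching reads. The authors' feature and gene annotation was kept, lactate list first. The depth of the IP libraries beyond the peak windows was not used.

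Members and lists were chosen with earlier results of these data known. Log2 ratios were recomputed from the deposited densities, with no pseudocount, and centred on the members' median. Reads were recovered from the deposited log2 columns: density is (reads + 1) per kb in a 2 kb window before the authors' line. At 113288 peaks under 200 reads the largest distance to a whole number was 0.00109, and at 3194 peaks of 200 to 20000 reads it was 0.0303. On 20000 simulated peaks 100% of reads were recovered. Gene values are medians over a gene's member peaks, intergenic peaks left out. Input ratios are log2 of FPKM + 1 (at least 1 FPKM in an input), centred. Intervals are exact binomial on the reads. Named were the 12 highest and lowest genes with 3 or more exon or UTR peaks on one side, the 8 highest and lowest peaks of density 200 or more, 3 of density 100 or more per feature class, the 8 densest, 3 genes of the study, and the 2 highest and lowest of each list; 2 peaks of genes without a symbol are left out. The genes named for their intron peaks, and JUN, FOSL1, IER2, CCN2, DUSP5, PVT1, OIP5-AS1, FTX, EP300, NOP56, NPM3, RRP1 and CEBPZ, were named after their values were seen. Some genes that the rule names are not reported here. Python 3.11.15, numpy 2.4.6, pandas 2.3.3 and scipy 1.17.1 were used. Alternatives were the minimum density, the centring, a pseudocount, recovered reads, the fold, the annotation order, summed densities, the number of peaks per gene and overlapping windows.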

Additional observations from a re-analysis of the deposited data

How the results depend on the processing

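No paired analysis was possible because each group had 1 library. Introns stayed above and exons and 5′ UTRs below the median peak with every minimum, with a pseudocount, with either annotation rule, with 1 peak per run and with recovered reads. Feature medians were not recomputed under other centrings, which shift every value alike; centring on all listed peaks, whose median lay 0.40 lower, would put the exon and 5′ UTR medians above 0 too. With a minimum summed density of 20, 80 and 160 in place of 40, the 2-fold peaks numbered 1522 higher and 1895 lower, 102 and 184, and 34 and 49; genes numbered 74 and 70 at 20, and 5 and 4 at 80. Feature medians that moved were, at 20, exon -0.16, 3′ UTR -0.018 and intron 0.23; at 80, 3′ UTR 0.045 and intergenic 0.28; at 160, 3′ UTR 0.052, intron 0.17 and intergenic 0.63. Centring on all listed peaks gave 1483 higher and 204 lower peaks, and no centring 11 higher genes. A pseudocount of 5 gave 242 and 369 peaks and an intron median of 0.28. At 1.5-fold there were 1540 and 1842 peaks and at 4-fold 15 and 35. Peaks with the same feature in both lists had medians of -0.040 (exon), 0.12 (3′ UTR) and 0.40 (intron). Genes with at least 2 peaks numbered 44 and 80 past 2-fold, with at least 5 peaks 6 and 3, and, chosen after seeing the data, with at least 1 peak 114 and 255. Also chosen after seeing the data, 1 peak per run gave 381 lower peaks and an exon median of -0.10, and recovered reads gave -0.019 (3′ UTR), 0.47 (intron) and 0.33 (intergenic) and 34 higher genes. Of 99 list medians under alternatives, 98 stayed within the 95% interval of the list's median (order statistics) and 20 changed sign, all between -0.40 and 0.35. Of 113 values of named genes, 87 stayed within the range of the gene's peaks, and RPL28 alone changed sign, to -0.04 by IP FPKM. The smallest member window had 3 reads in the lactate IP.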

Other observations

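The 98 peaks in processed pseudogenes, which are copies of spliced messages, had a median of -0.27 (reads scale -0.21) and 11 were 2-fold lower (11.2%, against 5.52% of all peaks). The 41 peaks in transcribed unprocessed pseudogenes, which keep the intron-exon structure, had a median of 0.27 (reads scale 0.45) and 1 was 2-fold lower. The 32 peaks in transcribed processed pseudogenes lay at 0.13 (reads scale 0.27) and the 11 in transcribed unitary ones at -0.22 (reads scale 0.02). Reads of processed pseudogenes can be shared with their parent genes.

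Among the genes 2-fold higher over 3 or more peaks, named after their values were seen, SEMA4B, a transmembrane semaphorin, was at 1.65, from its intron peaks, with an input value of 0.01. Its 3′ UTR peak was at 0.47 (reads scale 0.15). The zinc finger gene ZNF131 was at 1.42, with an input value of 0.02, and the nucleotidase NT5C2 at 1.24, and all member peaks of both lay in introns. Among the lower genes, TRMT6, a subunit of the transfer RNA m1A methyltransferase, was at -1.10 and at -0.56 in the input, and the nucleoporin NUP85 was at -1.25 and at 0.27 in the input.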
